A study of Mus musculus with 2 samples.

Results

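Complement components and receptors were followed through 9 genes: the chains of C1q (C1qa, C1qb and C1qc), C3, factor B (Cfb), properdin (Cfp), the anaphylatoxin receptors C3ar1 and C5ar1, and the membrane regulator Cd55. They were taken by symbol, and all 9 were found among the 24346 genes listed for both libraries. The libraries were bulk RNA-seq of GFP+CD4+ cells, the Tregs of Foxp3-DTR-GFP (FDG) mice, in which GFP and the diphtheria toxin receptor are expressed from the Foxp3 locus, so that GFP marks cells that transcribe Foxp3. 1 library came from spleen and 1 from lung, both on day 15 after 50 μg bleomycin (BLM) given into the trachea of mice 10 to 16 weeks old, and each pooled the cells of 3 mice. Both tissues were therefore exposed to BLM, and a tissue difference cannot be told apart from a difference between 2 libraries. With 1 library per tissue no test was possible, and every value below is a description of these libraries.

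Complement is a cascade of plasma and cell-surface proteins that tags targets for uptake and recruits leukocytes. C1q opens the classical pathway on antibody or dying cells, all pathways meet at the cleavage of C3, factor B and properdin form the amplification loop of the alternative pathway, and the released fragments C3a and C5a act through C3ar1 and C5ar1. Tissue macrophages are a main source of C1q, myeloid cells carry both receptors, and lymphocytes and many other cells carry Cd55, which speeds the decay of the C3 convertases.

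The genes of the C1q chains lie side by side on chromosome 4, and C3ar1 and C5ar1 had the largest lung-to-spleen ratios among the 9, so promoters of these genes are shown. RefSeq (GRCm38.p6) gave a window of 300 bases, 250 before and 50 after the start of transcription, for 7 of the 9 genes. C1qa and Cfb had no entry. Each sequence below is read 5′ to 3′ on the minus strand. Capitals mark GAGGAA and TGCTGA, the motifs searched on both strands, so that TTCCTC and TCAGCA are the same motifs on the other strand. The windows are chr4:136886151-136886450 for C1qb, chr4:136892865-136893164 for C1qc, chr6:122856108-122856407 for C3ar1 and chr7:16259289-16259588 for C5ar1.
C1qb: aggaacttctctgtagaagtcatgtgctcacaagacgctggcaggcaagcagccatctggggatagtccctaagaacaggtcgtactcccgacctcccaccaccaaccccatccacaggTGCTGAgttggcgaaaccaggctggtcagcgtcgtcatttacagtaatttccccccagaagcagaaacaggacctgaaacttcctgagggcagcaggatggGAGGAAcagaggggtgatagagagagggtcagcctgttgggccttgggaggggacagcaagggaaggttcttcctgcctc
C1qc: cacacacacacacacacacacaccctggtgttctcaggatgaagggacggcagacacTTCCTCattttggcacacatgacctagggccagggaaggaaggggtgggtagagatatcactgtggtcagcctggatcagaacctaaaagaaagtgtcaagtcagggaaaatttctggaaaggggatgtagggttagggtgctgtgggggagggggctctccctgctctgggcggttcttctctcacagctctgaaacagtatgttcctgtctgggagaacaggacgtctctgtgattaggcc
C3ar1: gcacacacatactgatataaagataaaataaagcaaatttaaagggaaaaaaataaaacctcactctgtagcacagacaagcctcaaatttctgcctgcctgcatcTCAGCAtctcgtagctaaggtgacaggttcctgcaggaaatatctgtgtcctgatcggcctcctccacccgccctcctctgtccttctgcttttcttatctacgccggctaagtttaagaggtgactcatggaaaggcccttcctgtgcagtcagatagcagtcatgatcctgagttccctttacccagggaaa
C5ar1: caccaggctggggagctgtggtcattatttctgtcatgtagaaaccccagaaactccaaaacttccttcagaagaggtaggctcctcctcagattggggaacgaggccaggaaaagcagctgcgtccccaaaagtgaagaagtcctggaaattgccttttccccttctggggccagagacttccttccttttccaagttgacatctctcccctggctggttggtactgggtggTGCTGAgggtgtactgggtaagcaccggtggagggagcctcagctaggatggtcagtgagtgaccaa
Counted from the first base of the window, C1qb held TGCTGA at 120 to 125 and GAGGAA at 221 to 226, and C1qc held GAGGAA in reverse at 58 to 63. C3ar1 held TGCTGA in reverse at 107 to 112 and C5ar1 held it at 234 to 239. Among the 7 windows, GAGGAA occurred in 3 (C1qb, C1qc and Cfp), TGCTGA in 5 (C1qb, C3, C3ar1, C5ar1 and Cd55) and the interferon-stimulated response element (ISRE) in 0. Among all 32851 promoters of the table these motifs occurred in 28.3%, 19.5% and 3.44%. These are matches of letters, and no binding was measured. The GENCODE M21 starts of C1qc and C5ar1 lie upstream of the RefSeq starts behind these windows, so the windows depend on the annotation.

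Expression was given as FPKM, which divides fragments by transcript length and by a measure of library depth, so that levels can be compared between genes. How that depth was scaled between the libraries is not given in the sources used here. The FPKM summed to 599633 in spleen and 808853 in lung, from an estimated 9865437 and 12884961 reads. Over the 10052 genes that reached 1 FPKM in both libraries the median ratio was 1.01, whereas dividing each library by its own sum (TPM) multiplied every lung-to-spleen ratio by 0.741, a shift of -0.43 in log2. Ratios are lung over spleen after values under 0.1 FPKM were set to 0.1. The reads behind a value were estimated from its transcript length, and the 95% intervals in brackets come from these reads by the exact Clopper-Pearson method. They cover counting error only, since PCR copies are not independent molecules, and they leave out differences between animals.

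All 9 genes had a higher FPKM in the lung library, and Cfp and Cd55 differed by so little that both were lower in lung on the TPM scale. 7 genes were over 2-fold higher (C1qa, C1qb, C1qc, C3, Cfb, C3ar1 and C5ar1), which is 77.8% of the 9 against 11.0% of all listed genes. 0 were over 2-fold lower, against 11.7%. C3ar1 was the 1 gene over 20-fold higher, against 1.62%, and 0 were over 20-fold lower, against 1.17%. The median log2 ratio of the 9 was 2.12, and that of all listed genes was 0.00. The members were chosen with earlier results of these data known, so these values describe the list and are no test of it. Over the 12094 genes that reached 1 FPKM in the higher library, as all 9 did, 17.8% were over 2-fold higher and 15.5% lower. On the TPM scale 2123 listed genes were over 2-fold higher and 4555 lower, in place of 2678 and 2850. On that scale 7 of the 9 were still over 2-fold higher, C1qa and C1qc narrowly, with log2 ratios of 1.04 and 1.03. Together the 9 genes made up 375 FPKM in spleen and 1141 FPKM in lung, or 0.0626% and 0.141% of the sums.

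**Figure D1:**
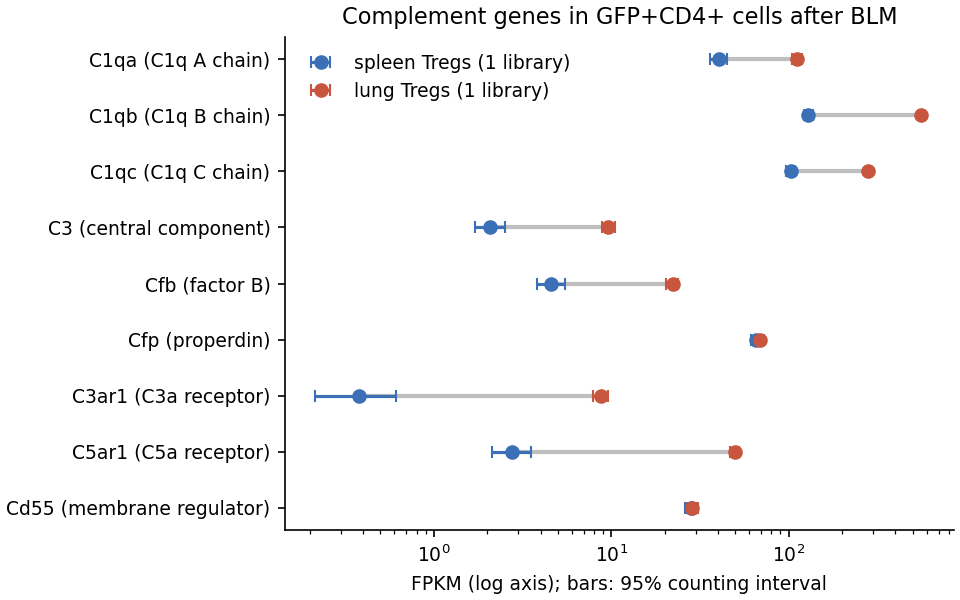
FPKM (log10 axis) of the 9 complement genes in the spleen and the lung library, 1 point per library, with bars for 95% counting intervals. C3ar1 (0.377 and 8.74) and C5ar1 (2.76 and 49.6) are the farthest apart, and the points of Cfp and Cd55 nearly coincide.

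The transcripts of all C1q chains were higher in lung, and C1qb was among the abundant transcripts of both libraries. C1q is built from A, B and C chains in equal number, each with a collagen-like stalk and a globular head. C1qb (ENSMUSG00000036905.8, chromosome 4 from 136880129 to 136886187, minus strand, GRCm38, 3 exons) was at 129 FPKM in spleen and 560.3 FPKM in lung, a ratio of 4.34 [4.07 to 4.62]. It had the highest level of the 9 in both libraries, ranking 752 of 24346 genes in spleen and 229 in lung. C1qc (ENSMUSG00000036896.5, 136889804 to 136893065, 3 exons) was at 103 FPKM in spleen and 282 FPKM in lung, a ratio of 2.75 [2.56 to 2.95]. C1qa (ENSMUSG00000036887.5, 136895917 to 136898803, 3 exons) was at 40.3 FPKM in spleen and 112 FPKM in lung, a ratio of 2.78 [2.46 to 3.15]. By level, C1qc ranked 959 in spleen and 449 in lung, and C1qa ranked 2530 and 1082. The ratio intervals of C1qa and C1qc overlapped, and that of C1qb lay above both. The ratios stood on 347 to 1178 estimated reads per chain in spleen and 1095 to 5803 in lung.

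The order C1qb, C1qc, C1qa held in both libraries, but the proportions differed. The level of C1qc relative to C1qa was 2.54 in spleen and 2.52 in lung. C1qb relative to C1qa was 3.20 in spleen and 5.01 in lung. Of the summed FPKM of the chains, 272 in spleen and 954 in lung, C1qb took 47.5% in spleen and 58.7% in lung. C1qc took 37.7% and 29.5%, and C1qa 14.8% and 11.7%. As shares of estimated reads, C1qb took 45.6% [43.7 to 47.6] in spleen and 56.9% [55.9 to 57.9] in lung, so the gap was larger than counting error. Whether it exceeds the difference between libraries of 1 tissue cannot be told with 1 library each. Since proportions of this kind compare genes within a library, TPM scaling leaves them as they are. The genes on either side of the cluster were near 0: Ephb2, 43800 bases away, had 0.0208 FPKM in spleen and was listed at 0 in lung, and Epha8, 30575 bases away, was listed at 0 in both.

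**Figure D2:**
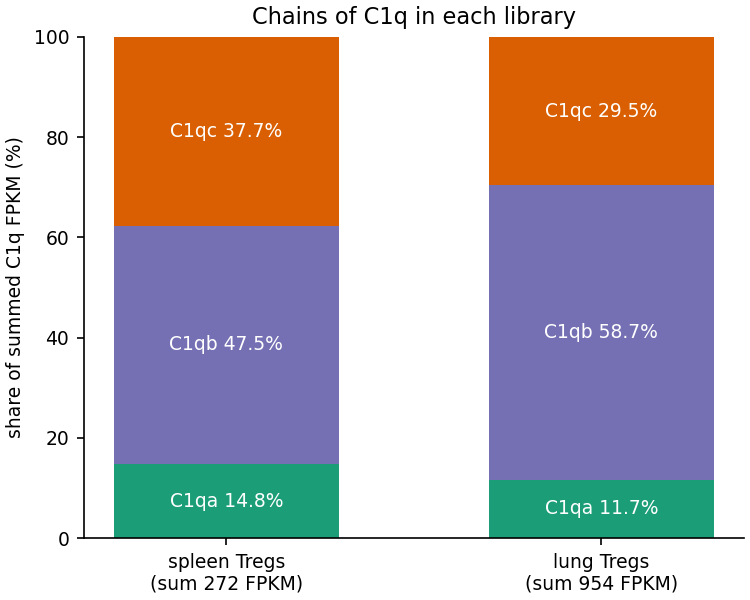
Share of the summed C1q FPKM (percent) taken by C1qa, C1qb and C1qc in the spleen and the lung library, 1 bar per library. C1qb takes 47.5% in spleen and 58.7% in lung.

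C3 and Cfb were low in spleen and higher in lung by similar factors, and Cfp did not differ beyond its counting interval. C3 (ENSMUSG00000024164.15, chromosome 17 from 57203970 to 57228136, minus strand, 41 exons), the central component of the cascade, was at 2.07 FPKM in spleen and 9.63 FPKM in lung, a ratio of 4.64 [3.77 to 5.77] on 106 and 559 estimated reads. Cfb (ENSMUSG00000090231.10, chromosome 17 from 34856374 to 34862518, minus strand, 18 exons), which supplies the protease of the alternative C3 convertase, was at 4.60 FPKM in spleen and 22.2 FPKM in lung, a ratio of 4.82 [3.98 to 5.93]. The intervals of C3 and Cfb overlapped, and Cfb relative to C3 was 2.22 in spleen and 2.30 in lung. C1qb relative to C3 was likewise close in both, at 62.3 in spleen and 58.2 in lung.

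Cfp (ENSMUSG00000001128.7, chromosome X from 20925454 to 20931555, minus strand, 9 exons), which stabilizes that convertase, was at 65.4 FPKM in spleen and 68.8 FPKM in lung. Its ratio of 1.05 [0.966 to 1.15] had an interval that included 1, and on the TPM scale its log2 ratio was -0.36. Relative to Cfb, Cfp was 14.2 in spleen and 3.11 in lung, so the gap between them was narrower in lung. Cfd, the protease that cleaves factor B, was listed at 0 in both.

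The Cfb value carries a limit of annotation. Of its exon bases, 2246 (82.1%) are shared on the same strand with Gm20547, a protein-coding gene model that was not among the genes listed, and how reads in the shared bases were assigned is not given in the sources used here. The neighbours of Cfb did not follow it. Nelfe, 2 bases away, was at 21.6 and 17.1 FPKM, and C2, the classical-pathway counterpart of factor B 88 bases away on the other side, was at 1.31 FPKM in spleen and listed at 0 in lung. With lung credited with 3 reads C2 was 12.5-fold lower, and the lower 95% counting limit of its fold was 9.60.

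The receptors C3ar1 and C5ar1 had the largest ratios of the 9 genes. C3ar1 (ENSMUSG00000040552.8, chromosome 6 from 122847138 to 122856161, minus strand, 2 exons), the receptor of C3a, was at 0.377 FPKM in spleen and 8.74 FPKM in lung, a ratio of 23.2 [14.1 to 41.0]. The spleen value stood on about 16.02 reads against 422 in lung, hence the wide interval, whose lower bound is under 20-fold. C3ar1 passed 20-fold with a floor of 0.1 FPKM but not on the TPM scale, with a floor of 1 FPKM or with a pseudocount of 0.1 or 1 FPKM. C5ar1 (ENSMUSG00000049130.6, chromosome 7 from 16246743 to 16259540, minus strand, 2 exons), the receptor of C5a, was at 2.76 FPKM in spleen and 49.6 FPKM in lung, a ratio of 17.97 [14.0 to 23.3] on 65.8 and 1343 reads. The intervals of the receptors overlapped, so their ratios were not separated at this depth, although they fell on either side of 20-fold. C5ar1 was at 7.31 times the level of C3ar1 in spleen and 5.67 times in lung. By ratio, C3ar1 ranked 329 and C5ar1 435 of the 24346 genes. C5ar2, the second C5a receptor, 2589 bases from C5ar1, was at 0.120 FPKM in spleen and 0.290 FPKM in lung on 3.97 and 10.9 reads, with a ratio of 2.42 [0.718 to 10.4] whose interval included 1. Ccdc9, on the other side of C5ar1, was at 12.2 and 12.3 FPKM.

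Cd55 (ENSMUSG00000026399.12, chromosome 1 from 130439027 to 130462744, minus strand, 10 exons) was at 28.1 FPKM in spleen and 28.6 FPKM in lung. The ratio of 1.02 [0.917 to 1.13] included 1, and the log2 ratio was -0.41 on the TPM scale. The near-identical gene Cd55b, 6701 bases away, was at 0.0864 FPKM in spleen and 0.381 FPKM in lung on 0.849 and 4.24 estimated reads, too few to compare. Reads that fit both genes could be split between them, but the share of Cd55b was small in either library. Of the exon bases of Cd55, 102 (4.03%) lie opposite the antisense gene Gm16083, and the library kit does not mark strand.

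The order of the levels differed between the tissues. In spleen it ran C1qb, C1qc, Cfp, C1qa, Cd55, Cfb, C5ar1, C3 and C3ar1, and the counting intervals of C5ar1 and C3 were the only neighbouring ones that overlapped. In lung it ran C1qb, C1qc, C1qa, Cfp, C5ar1, Cd55, Cfb, C3 and C3ar1, and only those of C3 and C3ar1 overlapped. C5ar1 thus stood below Cd55 and Cfb in spleen and above both in lung. C1qa stood below Cfp in spleen and above it in lung.

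The spread of ratios among genes of like level gives the ratios a scale. Of the 4834 genes with a mean of 1 to 10 FPKM, the middle 95% had log2 ratios from -5.00 to 5.22, and C3 (2.22) and C3ar1 (4.53) both lay within. Of the 5481 genes with a mean of 10 to 100 FPKM, that range ran from -1.47 to 2.70. C5ar1 (4.17) lay above it, and C1qa (1.47), Cfb (2.27), Cfp (0.07) and Cd55 (0.03) lay within. Of the 1106 genes at 100 FPKM or more, the range ran from -1.13 to 4.81, with C1qb (2.12) and C1qc (1.46) inside. In these bands 24.3%, 9.12% and 14.1% of the genes were over 2-fold higher in lung. C5ar1 was therefore the 1 gene of the 9 outside the range of its own level, although C3ar1 had the larger ratio. The band of C3ar1 was the widest, with 6.04% of its genes over 20-fold higher, against 1.26% in the band of C5ar1. A place within that band is thus a weaker statement than a place within the band of C5ar1.

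**Figure D3:**
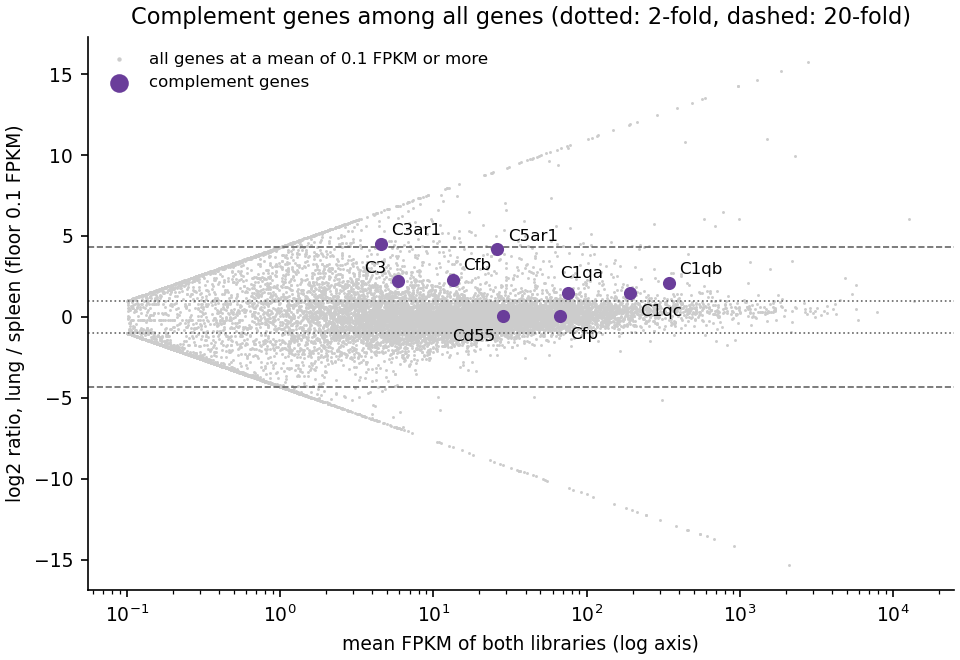
Lung-to-spleen log2 ratio of each listed gene with a mean of at least 0.1 FPKM (grey points) against that mean (log10 axis), with the 9 complement genes in purple, dotted lines at 2-fold and dashed lines at 20-fold. C5ar1 lies above the middle 95% of genes of 10 to 100 FPKM (-1.47 to 2.70), and Cfp and Cd55 lie at the centre.

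C1q, C3ar1 and C5ar1 are known as genes of macrophages and other myeloid cells, so markers of the cells that the GFP+CD4+ gate could hold were read beside them. T cell markers were abundant in both libraries, with 10 of 10 present, sums of 4566 FPKM in spleen and 4423 in lung, and 0 over 2-fold apart. Foxp3 had 18.7 FPKM in the spleen library and 41.8 FPKM in the lung library, and Cd4 had 195 and 179 FPKM. Of the 8 Treg markers, Foxp3 included, 4 were higher and 4 lower in lung, with 3 over 2-fold higher and 1 (Lrrc32, 69.4 and 30.4 FPKM) over 2-fold lower. All 10 macrophage markers were also present in both, 9 of them higher in lung. Of the 10, 6 were over 2-fold higher and 1 (Aif1, 22.7 and 9.43 FPKM) over 2-fold lower. Their sum was 526 FPKM in spleen and 25711 FPKM in lung. Lyz2 (lysozyme) made up most of that sum, at 376 FPKM in spleen and 24947 FPKM in lung.

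Markers of macrophage subtypes differed in opposite directions. The 8 alveolar macrophage markers were all over 2-fold higher in lung and summed to 32.9 FPKM in spleen against 1607 FPKM in lung, with Ear1 and Car4 at 0 in spleen. Of 8 interstitial macrophage markers, 6 were over 2-fold higher and 2 lower, with sums of 14.2 FPKM and 231 FPKM, Lyve1 at 0 in spleen and Gas6 at 0 in lung. Of 7 red pulp macrophage markers, 6 were over 2-fold lower in lung, and the sum was 331 FPKM in spleen and 94.8 FPKM in lung, with Vcam1 at 0 in lung. Of the 7 neutrophil markers listed, 3 were over 2-fold higher and 2 lower, with sums of 483 FPKM and 1200 FPKM, and Ngp and Camp at 0 in lung. Of 6 dendritic cell markers, 2 were over 2-fold higher and 2 lower, with sums of 11.9 FPKM and 31.1 FPKM, and Clec9a at 0 in lung. The part of these cells in the complement values was not tested. In bulk libraries, fewer cells of a type and less RNA per cell cannot be told apart.

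The complement genes did not share 1 factor with these markers. The summed C1q level was 3.51 times as high in lung, whereas Lyz2 was 66.3-fold, Cd14 24.4-fold and Cd68 8.57-fold higher. Csf1r, the receptor that macrophages depend on, had 43.8 FPKM in spleen and 50.1 in lung, and Adgre1, which encodes F4/80, at 14.6 and 24.3 FPKM. Relative to Csf1r, summed C1q was 6.20 in spleen and 19.0 in lung, and relative to Adgre1 it was 18.7 and 39.3. Relative to Lyz2 it was 0.723 in spleen and 0.0382 in lung. C1qa, C1qb and C1qc each had a smaller ratio than 5 of 10 macrophage markers, 8 of 8 alveolar and 5 of 8 interstitial macrophage markers, and a larger ratio than all 7 red pulp macrophage markers. C3ar1 was exceeded by 2 of 10 macrophage, 5 of 8 alveolar and 3 of 8 interstitial markers, and C5ar1 by 2, 6 and 3. Cfp and Cd55 were exceeded by 9 of 10, 8 of 8 and 6 of 8.

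**Figure D4:**
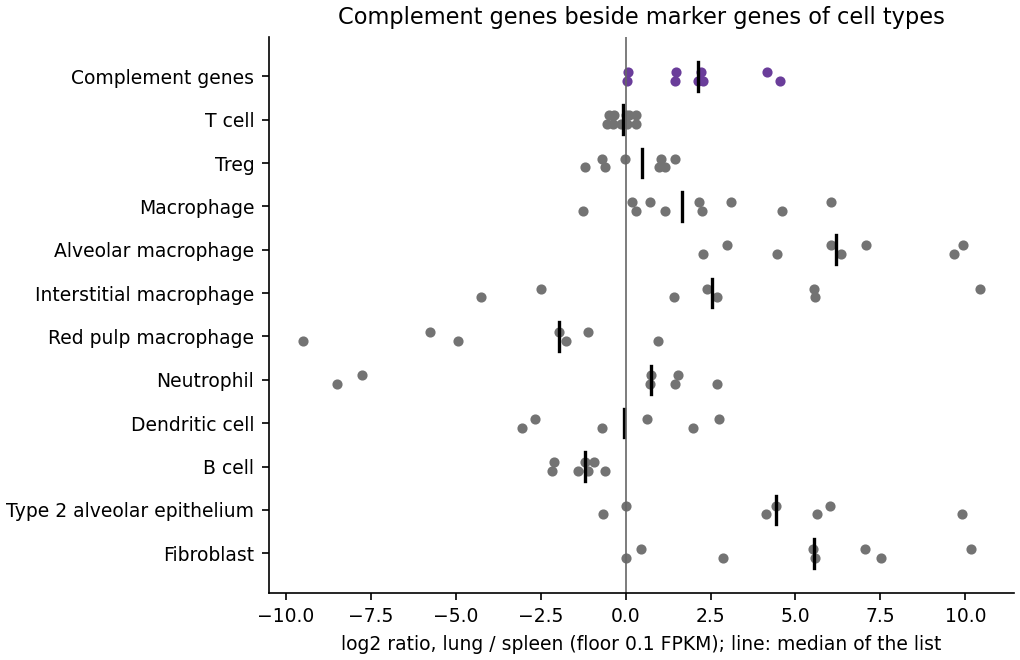
Lung-to-spleen log2 ratio (values under 0.1 FPKM set to 0.1) of the 9 complement genes and of each marker in the lists of immune and lung cells, 1 point per gene and a line at each median. The medians are 2.12 for the complement genes, 1.66 for macrophage markers, 6.20 for alveolar and -1.97 for red pulp macrophage markers.

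The rest of the pathway showed no common direction. Of 43 other complement genes, 16 were higher and 17 lower in lung and 10 were listed at 0 in both. 11 (25.6%) were over 2-fold higher, against 11.0% of all listed genes, and 10 (23.3%) over 2-fold lower, against 11.7%. The median log2 ratio was 0.00, as over all listed genes, and genes listed at 0 in both libraries count as 0.00 in it. On the TPM scale 11 were over 2-fold higher and 13 lower. 19 of the 43 reached 1 FPKM in either library. Of these, 9 were over 2-fold higher and 7 over 2-fold lower, with a median log2 ratio of 0.36. Of all 12094 genes at that level, 17.8% were over 2-fold higher and 15.5% lower, with a median of 0.03.

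Among 16 genes of the classical and lectin start, 4 were over 2-fold higher and 3 over 2-fold lower. C1ra, a protease that C1q carries, was at 0.113 FPKM in spleen and 6.19 FPKM in lung, a ratio of 54.6 [20.01 to 290.0] with 3.26 reads in spleen. Reads of C1ra and its near-identical copy C1rb, listed at 0 in both, could be split between them. C4b, whose fragment C4b joins the classical convertase and whose reads may be shared with C4a, was at 0.484 and 1.72 FPKM. Against these, ficolin A (Fcna), a lectin that starts the lectin pathway, was at 91.3 FPKM in spleen and 31.6 FPKM in lung, 2.89-fold lower [2.59 to 3.24]. Fcna was thus close in level to C1qc in spleen, and C1qc was far above it in lung. The collectin Colec12 was at 3.78 and 11.9 FPKM, 3.15-fold higher [2.77 to 3.59].

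Of the 7 terminal components, which form the membrane attack complex, 0 were over 2-fold higher and 2 over 2-fold lower. C6 was at 6.67 FPKM in spleen and 0.0645 FPKM in lung, on 184 and 2.03 reads. With the lung value set to 0.1 FPKM it was 66.7-fold lower, and without that floor 103-fold lower [28.5 to 869]. C8g was at 4.86 and 1.24 FPKM, 3.91-fold lower [2.02 to 8.71]. Among the soluble regulators, Serping1, the inhibitor of C1 proteases, was at 0.239 and 9.33 FPKM, a ratio of 39.0 [14.4 to 139.8]. Clu (clusterin) was at 5.12 and 2.34 FPKM, 2.19-fold lower. The C1 inhibitor is known to be made by fibroblasts as well as by the liver. 7 of 8 fibroblast markers were higher in lung, with a sum of 0.290 FPKM in spleen and 163 FPKM in lung, with Col3a1, Pdgfra, Pdgfrb, Lum and Mgp at 0 in spleen and Pdgfrb also at 0 in lung. Of 7 type 2 alveolar epithelium markers, 5 were over 2-fold higher, with sums of 7.53 and 115 FPKM and Sftpc, Sftpb, Sftpd and Lamp3 at 0 in spleen. Abca3 made up most of the spleen sum, at 7.47 FPKM, and was the 1 marker lower in lung, at 4.73 FPKM. The part of fibroblasts and epithelium in the Serping1 value was not tested.

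Of the 5 other membrane regulators, 1 was over 2-fold higher, Cd55b on the few reads given above, and 2 were over 2-fold lower. Cr1l (Crry), the rodent regulator of C3 convertases, was at 78.7 FPKM in spleen and 91.6 FPKM in lung, above Cd55 in both. Cd46 was at 2.30 and 1.01 FPKM. Of 8 other receptors, 4 were over 2-fold higher and 2 over 2-fold lower. Itgax (CD11c), the alpha chain of complement receptor CR4, was at 1.36 FPKM in spleen and 24.1 FPKM in lung, a ratio of 17.7 [13.5 to 23.8] whose interval overlapped that of C5ar1. Itgam (CD11b), the alpha chain of CR3, was at 1.45 and 5.85 FPKM, 4.05-fold higher [3.09 to 5.34], and their common beta chain Itgb2, which all leukocytes express, was at 266 and 340.1 FPKM. Cd93 was at 0.135 and 1.93 FPKM, a ratio of 14.3 [7.37 to 32.1]. Cr2, a receptor of B cells for C3 fragments, was at 8.68 FPKM in spleen and 4.14 FPKM in lung. All 7 B cell markers were lower in lung too, with sums of 262 FPKM and 129.8 FPKM, and their part in Cr2 was not tested.

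**Figure D5:**
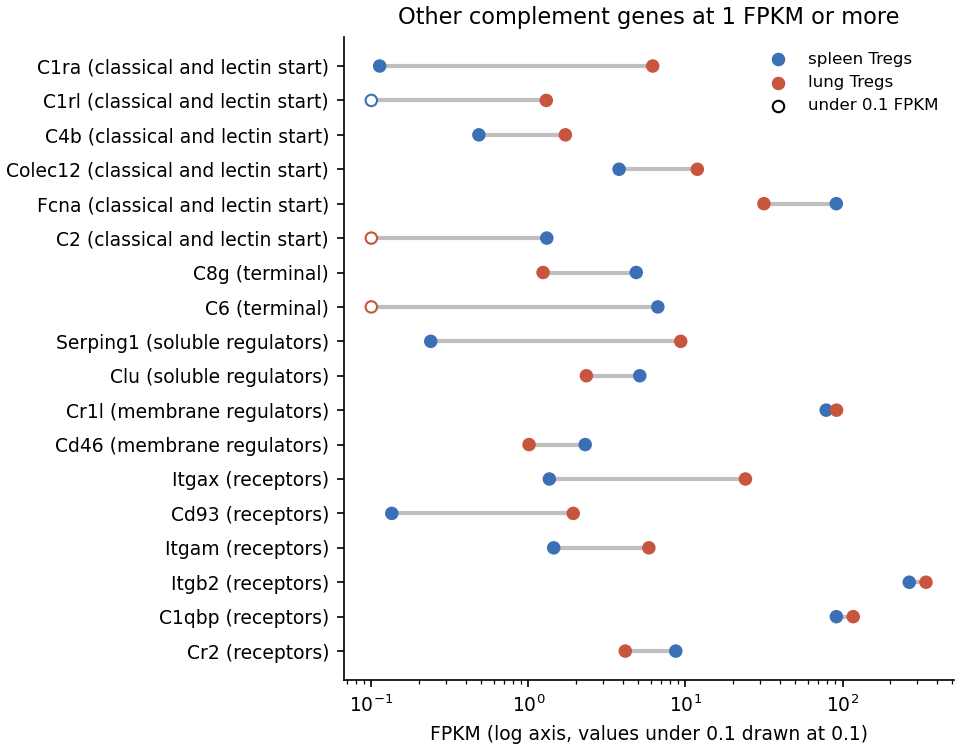
FPKM (log10 axis) of other complement pathway genes that reached 1 FPKM, 1 point per library, ordered by role, with open points for values under 0.1 FPKM. Itgax, Serping1 and C1ra are higher in lung, Fcna, C6 and C8g are lower, and C2 is listed at 0 in lung.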

How the data were processed

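Full-length cDNA libraries of GFP+CD4+ cells were sequenced with 75-base single-end reads. Per the submitters' processing notes the tools were TopHat2 2.1.1, Bowtie2 2.2.8, SAMtools 0.1.18 and Cuffdiff 2.2.1, with mm10. The authors deposited FPKM per gene, 1 table per library, with no counts. The annotation is not given in the sources used here, nor are the options of Cuffdiff. Samples were grouped by the tissue in their labels.

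The members were matched by symbol, and the members and lists were chosen with earlier results of these data known. All 9 members were named, together with pathway genes that reached 1 FPKM, nearest neighbours, and markers, except for 1 pathway gene that is not reported here. Values under 0.1 FPKM were set to 0.1 before the ratio of lung to spleen was taken, and folds over 2 and over 20, the fold the study used, were counted over all listed genes. No test was run with 1 library per tissue.

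The depth is not part of the deposited FPKM, so reads were estimated from GENCODE M21 lengths (GRCm38) as the FPKM times the effective length, divided by the value of 1 read. Effective lengths used fragments of mean 200, SD 80 and shortest 73 bases. The value of 1 read was the commonest product among transcripts of at least 1500 nt, within 1%, and was 0.0965 FPKM in the spleen library and 0.0850 FPKM in the lung library for an effective length of 1 kb. Lengths were found for 23250 genes (95.5%). Of the low genes, 72.6% of 2091 in spleen and 74.6% of 1246 in lung lay within 0.1 of a whole number of reads, so reads are estimates and no count test was run. The promoters of C3ar1 and C5ar1 were chosen for display after their values were seen. Alternatives changed the floor, the pseudocount, the scaling, the filter and the fold. Calculations were tested on simulated data and run in scipy 1.17.1, pandas 2.3.3 and numpy 2.4.6 under Python 3.11.15, with plots by matplotlib 3.10.9.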

Additional observations from a re-analysis of the deposited data

How the results depend on the processing

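No paired analysis was possible because each tissue has 1 library, and for the same reason no library could be left out. The count of 7 complement genes over 2-fold higher in lung held under every alternative except 6 among genes at 1 FPKM in both libraries, a filter that removes C3ar1, and 5 at 4-fold. Cfp and Cd55 were lower in lung on the TPM scale, and the other 7 were higher under every alternative. C1qa and C1qc passed 2-fold only narrowly on the TPM scale, at log2 ratios of 1.04 and 1.03. The count over 20-fold, 1 as reported, was 0 with a floor of 1 FPKM, with pseudocounts of 0.1 and 1, on the TPM scale, among genes at 1 FPKM in both libraries and at 50-fold, and 2 at 10-fold. The median log2 ratio of the 9 was 1.79 with a pseudocount of 1, 1.69 on the TPM scale and 1.80 among genes at 1 FPKM in both libraries. By reads in place of FPKM, C1qc took 40.9% of C1q in spleen, and in lung C1qa took 10.7%, C1qb 56.9% and C1qc 32.4%.

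Of the other pathway genes, those over 2-fold higher numbered 6 with a floor of 1, 3 among genes at 1 FPKM in both libraries and 7 at 4-fold. Those over 2-fold lower numbered 17 with a floor of 0.01, 6 with a floor of 1, 4 with a pseudocount of 1, 5 among genes at 1 FPKM in both and 5 at 4-fold. Their median was 0.36 among genes at 1 FPKM in the higher library and 0.22 among those in both. Of all listed genes, those over 20-fold higher were 395 with the floor of 0.1 FPKM. They numbered 867 with a floor of 0.01, 102 with a floor of 1, 78 with a pseudocount of 1 and 33 among genes at 1 FPKM in both. Those over 20-fold lower were 284 with the floor of 0.1 FPKM. They numbered 1256, 51, 49 and 2 in the same order, and 459 on the TPM scale. Those over 2-fold higher numbered 1763 with a floor of 1, 1771 with a pseudocount of 1 and 1098 among genes at 1 FPKM in both. Those over 2-fold lower numbered 1486, 1475 and 1003 in the same order, 4555 on the TPM scale and 1872 among genes at 1 FPKM in the higher library. Crediting each library with at least 3 reads, chosen after seeing the data, left 7 of the 9 over 2-fold and 1 over 20-fold. Beyond the arithmetic of the floors, filters and folds, the cause was not tested. Among the 9 complement genes the fewest reads were those of C3ar1 in spleen, 16.02, and some pathway ratios rest on fewer, such as C1ra on 3.26 in spleen and C6 on 2.03 in lung.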
